A study of Mus musculus with 11 samples.

Results

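The insulin signalling and glucose transport genes examined here were 10 genes that carry the insulin signal from the cell surface to glucose uptake in fat: Insr, Irs1, Irs2, Pik3r1, Pik3ca, Akt1, Akt2, Slc2a4, Slc2a1 and Pck1. They were taken by gene symbol from a table of 42815 loci, in which the 10 genes filled 11 loci because Irs2 was listed under 2 of them. The RNA came from gonadal white adipose tissue, the visceral fat beside the epididymis, of male C57Bl/6 mice that were 50 weeks old and singly housed. The first group carried a whole-body deletion of 14-3-3ζ (14-3-3ζKO, 5 libraries), and the other was wild-type (6 libraries, described by the study as littermates). The labels give standard chow for all animals, whereas the study names a low-fat diet beside its analysis of this tissue, and this was not settled here. 14-3-3ζ, encoded by Ywhaz, is an adaptor protein that binds phosphorylated partners, and because the deletion was not limited to fat, other tissues of these mice lacked it too.

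Insulin binds its receptor tyrosine kinase on the adipocyte surface, and the receptor phosphorylates the insulin receptor substrates. The substrates recruit phosphoinositide 3-kinase, whose lipid product brings the kinase Akt to the membrane, and Akt then releases vesicles that carry the glucose transporter GLUT4 to the surface. In fat this route also holds back lipolysis, and, as is known best from liver, it represses the transcription of genes such as Pck1 and Irs2 through FoxO factors. The signalling steps from the receptor to the transporter are regulated mainly through phosphorylation and movement of proteins, which RNA levels do not measure.

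All 10 genes were detected in both groups, and 2 of them stood at least 1.5-fold higher in 14-3-3ζKO than in wild-type tissue. These were Irs2, past the limit at 1 of its 2 loci and the substrate whose transcript is known from liver to be repressed by insulin, and Slc2a1, which encodes the insulin-independent transporter GLUT1. None of the 10 was at least 1.5-fold lower, and the insulin-regulated transporter gene Slc2a4 was 1.27-fold higher. Over all 15245 loci with a mean level of at least 1 FPKM, 17.5% were at least 1.5-fold higher and 10.5% were at least 1.5-fold lower, so that 2 of 10 is close to the share among all loci. FPKM is a fragment count divided by transcript length and by the size of the library. Differences are given as the ratio of the 2 group levels and as the difference of log2(FPKM + 1), which understates the difference of low genes, and the 1.5-fold limit was applied to the second.

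The table of all loci holds 1 FPKM per group. Levels per library were deposited only for 86 loci that the authors selected at a q under 0.05, and 0 of the 10 genes are among them. No error, interval or test can therefore be given for any of the 10, and whether a difference exceeds the spread between animals was not testable. As a measure of that spread, the median within-group SD of single libraries over the 86 loci was 0.998 on the log2(FPKM + 1) scale. A difference between groups of 5 and 6 libraries has a smaller error than single libraries, so this SD sets no limit for the 10 genes. The 86 loci were selected for their differences between the groups and may vary more or less than other loci. Because the tissue was analysed whole, fewer cells of a type and less RNA per cell cannot be told apart.

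**Figure D1:**
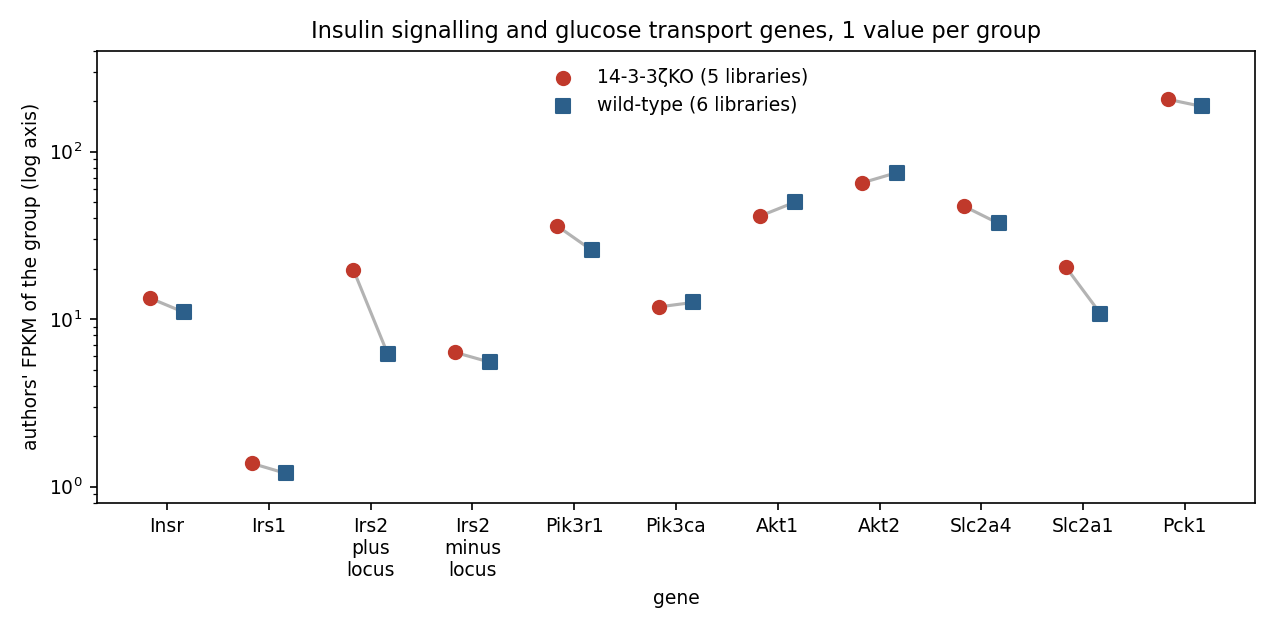
Level of each gene in 14-3-3ζKO (red circles, left of each pair) and wild-type tissue (blue squares, right), as the authors' FPKM of the group on a log axis. Each point is 1 value for a whole group with no error, Irs2 is shown at both of its loci, and the steepest lines belong to Irs2 at its plus locus and to Slc2a1.

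The upstream regions of 4 genes are shown because FoxO factors, which insulin shuts out of the nucleus, and cyclic AMP, which opposes insulin, are known regulators of genes in this route. By their listed loci, these 4 genes also hold the highest and the lowest level and the 2 differences of at least 1.5-fold. The Irs2 window is that of the annotated gene on the minus strand. The 1.5-fold difference of Irs2 was at the locus numbered with plus-strand loci, so this window may not belong to it. Each window runs from 250 bases before to 50 bases after the transcription start in RefSeq (GRCm38.p6), was found unchanged in the build of the data, NCBIM37, and is printed 5′ to 3′ on the strand of its gene. The capitals mark exact matches on either strand to the insulin response element TGTTTTG, the cyclic AMP response half-site ACGTCA, the TATA box TATAAA and the GC box GGGCGG, and no matches overlapped in these windows. Irs1 lies at chr1:82287965-82288264 on the minus strand, Irs2 at chr8:11008880-11009179 on the minus strand, Slc2a1 at chr4:118781100-118781399 on the plus strand and Pck1 at chr2:172978324-172978623 on the plus strand.
Irs1: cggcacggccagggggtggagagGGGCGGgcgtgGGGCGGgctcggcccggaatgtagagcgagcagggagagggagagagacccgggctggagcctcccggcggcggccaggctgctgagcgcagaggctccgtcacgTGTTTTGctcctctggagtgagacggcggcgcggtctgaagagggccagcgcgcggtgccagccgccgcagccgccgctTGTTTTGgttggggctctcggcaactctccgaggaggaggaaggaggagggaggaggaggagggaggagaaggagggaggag
Irs2: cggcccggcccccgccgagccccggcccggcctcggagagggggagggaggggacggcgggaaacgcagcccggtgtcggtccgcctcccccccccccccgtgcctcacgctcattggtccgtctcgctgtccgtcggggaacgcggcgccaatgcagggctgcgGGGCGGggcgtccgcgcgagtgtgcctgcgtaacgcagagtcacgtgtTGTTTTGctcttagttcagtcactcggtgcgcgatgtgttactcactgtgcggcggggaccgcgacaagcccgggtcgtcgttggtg
Slc2a1: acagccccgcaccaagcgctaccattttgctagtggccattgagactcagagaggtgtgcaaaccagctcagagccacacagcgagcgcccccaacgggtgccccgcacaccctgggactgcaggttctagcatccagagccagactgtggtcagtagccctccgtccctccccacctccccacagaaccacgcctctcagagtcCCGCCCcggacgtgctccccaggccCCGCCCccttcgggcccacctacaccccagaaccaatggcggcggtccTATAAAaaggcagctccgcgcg
Pck1: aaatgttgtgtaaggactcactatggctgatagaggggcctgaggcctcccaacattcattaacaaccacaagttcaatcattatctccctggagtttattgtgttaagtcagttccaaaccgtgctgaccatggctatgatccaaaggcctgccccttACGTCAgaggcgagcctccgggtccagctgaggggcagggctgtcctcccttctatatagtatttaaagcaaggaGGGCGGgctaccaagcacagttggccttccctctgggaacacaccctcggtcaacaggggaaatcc

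Both substrate genes held the insulin response element, at 111 and 32 bases before the start of Irs1 and at 37 bases before the start of Irs2. No other window of the genes with a RefSeq entry held it. Bases further than 250 before the start were not searched, so absence from a window does not show that a gene such as Pck1 lacks the element. RefSeq windows were matched for 8 of the 10 genes, Insr and Slc2a4 being the others, and these 8 had 13 windows. Among 32851 windows of 27025 genes, TGTTTTG was present in 6.28%. The half-site ACGTCA stood 91 bases before the start of Pck1, where that promoter has a known cyclic AMP response element, and was present in 7.51% of all windows. In the Slc2a1 window the letters TATAAA began 28 bases after the RefSeq start, against 13.6% of all windows with this motif, and 2 GC boxes stood on the opposite strand at 45 and 20 bases before it. GC boxes were also present before Irs1, at 227 and 216 bases, before Irs2, at 85 bases, and before Pck1, at 16 bases, and in 35.7% of all windows. A match of letters does not show that a factor was bound in this tissue.

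The insulin receptor gene, Insr, stood at 13.4 FPKM in 14-3-3ζKO and at 10.96 FPKM in wild-type tissue, a ratio of 1.22 and a log2 difference of 0.26. Of all loci, 57.7% differed by at least as much in either direction. The gene lies on the minus strand of chromosome 8 at 3150922 to 3279617 (NCBIM37, ENSMUSG00000005534.8) with up to 21 exons. The related receptor of insulin-like growth factor 1, Igf1r, stood at 5.43 FPKM in 14-3-3ζKO and 7.75 FPKM in wild-type tissue. The level of Insr relative to Igf1r was thus 2.46 in 14-3-3ζKO and 1.41 in wild-type tissue, and neither gene differed by as much as 1.5-fold.

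The receptor substrates differed most between themselves. Irs2 stood at 19.7 FPKM in 14-3-3ζKO and 6.15 FPKM in wild-type tissue at its higher locus, a ratio of 3.21 and a log2 difference of 1.54, and 7.26% of all loci differed by at least as much. This was the largest difference among the 10 genes, and Irs2 ranked the seventh by level in 14-3-3ζKO and the ninth in wild-type tissue. Irs1, the main substrate in adipocytes in many studies, had the lowest level of the 10, with 1.38 FPKM in 14-3-3ζKO and 1.20 FPKM in wild-type tissue, a ratio of 1.15 and a log2 difference of 0.11.

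Both substrate genes share exonic bases with an annotated gene on the other strand, as do Slc2a1 and Pik3r1 among the 10. Irs2 is annotated on the minus strand of chromosome 8 at 10986980 to 11008458 (ENSMUSG00000038894.6, 2 exons, 4024 exonic bases). The table lists it at 2 loci with the same interval, 10984679 to 11054541, which reaches 46083 bases past the annotated start and 2301 bases past the annotated end of the gene. The loci of a chromosome are numbered in blocks: of the annotated loci of the first block on chromosome 8, 96.8% (of 690) lie on the plus strand, and of the second block 96.8% (of 588) lie on the minus strand. The higher Irs2 locus, given above, is numbered within the plus-strand block. The Irs2 locus numbered within the minus-strand block, the strand of the annotated gene, stood at 6.33 FPKM in 14-3-3ζKO and 5.53 FPKM in wild-type tissue, a ratio of 1.14 and a log2 difference of 0.17. The large Irs2 difference was therefore present at 1 of the 2 loci, and the strand of each was inferred here from its number alone. With both loci added, the level was 26.1 FPKM in 14-3-3ζKO and 11.7 FPKM in wild-type tissue, a ratio of 2.23. The library kit was a TruSeq V2 kit and strand-specific counting is not stated, so reads of Irs2 and of an antisense transcript cannot be told apart. The annotated plus-strand neighbour, the long non-coding RNA 9530052E02Rik, shares 162 exonic bases with Irs2 (4.03% of its exonic length) and stood at 0.468 FPKM in 14-3-3ζKO and 0.609 FPKM in wild-type tissue.

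Irs1 lies on the minus strand of chromosome 1 at 82229676 to 82287991 (ENSMUSG00000055980.2), with 9144 exonic bases, of which 3693 are coding. The single exon of the plus-strand gene Gm9747 (82229687 to 82232508, 2822 bases) lies wholly inside the noncoding second exon of Irs1 and covers 30.9% of the Irs1 exonic length but none of its coding bases. Gm9747 stood at 11.3 FPKM in 14-3-3ζKO and 6.58 FPKM in wild-type tissue, a ratio of 1.72 and a log2 difference of 0.70, a level several times that of Irs1 itself. The blocks on chromosome 1 were likewise 98.1% plus (of 822 annotated loci) and 98.0% minus (of 793), and Gm9747 and Irs1 were numbered in the first and in the second. With Gm9747 added to it, Irs1 would stand at 12.7 FPKM in 14-3-3ζKO and 7.77 FPKM in wild-type tissue, a ratio of 1.63. The log2 difference of that sum was 0.64, past the 1.5-fold limit, whereas Irs1 at its own locus was within it. The sources used here do not give how reads of the shared exon were divided between the 2 genes, and FPKM of loci of different length add only approximately.

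**Figure D2:**
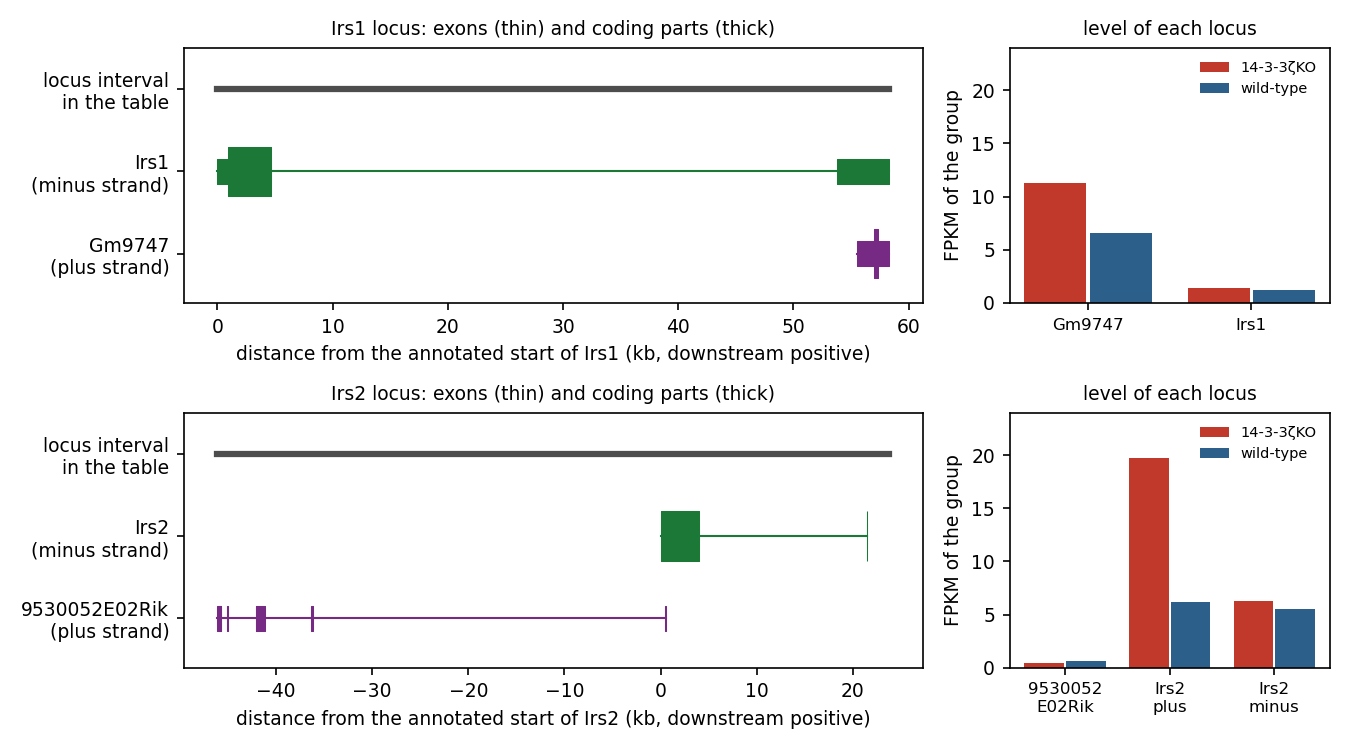
Left, exons (thin boxes) and coding parts (thick boxes) of Irs1 and Irs2 and of the annotated plus-strand gene at each, on the distance in kilobases from the start of the substrate gene, with the locus interval of the table as a grey bar. Right, FPKM of each locus in 14-3-3ζKO (red) and wild-type tissue (blue), where the pair with the largest gap is Irs2 at the locus numbered with plus-strand loci, at 19.7 FPKM in 14-3-3ζKO and 6.15 FPKM in wild-type tissue.

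The class I phosphoinositide 3-kinase is made of a regulatory and a catalytic subunit. Pik3r1, the gene of the regulatory subunits p85α, p55α and p50α, stood at 36.1 FPKM in 14-3-3ζKO and 25.8 FPKM in wild-type tissue, a ratio of 1.40 and a log2 difference of 0.47. Pik3ca, the gene of the catalytic subunit p110α, stood at 11.8 FPKM in 14-3-3ζKO and 12.6 FPKM in wild-type tissue, a ratio of 0.940 and a log2 difference of -0.08. The regulatory gene exceeded the catalytic one 3.05-fold in 14-3-3ζKO and 2.05-fold in wild-type tissue. Neither gene was past 1.5-fold, and 36.1% and 85.4% of all loci differed by at least as much as Pik3r1 and Pik3ca. Pik3r1 lies on chromosome 13 at 102450716 to 102538172 (ENSMUSG00000041417.8) and Pik3ca on chromosome 3 at 32296593 to 32367408 (ENSMUSG00000027665.7).

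The kinases downstream were among the highest of the 10 genes and somewhat lower in 14-3-3ζKO tissue. Akt2, the isoform tied to glucose uptake in fat and muscle, stood at 65.1 FPKM in 14-3-3ζKO and 74.9 FPKM in wild-type tissue, a ratio of 0.870 and a log2 difference of -0.20. Akt1, the isoform more closely tied to growth, stood at 41.3 FPKM in 14-3-3ζKO and 49.96 FPKM in wild-type tissue, a ratio of 0.827 and a log2 difference of -0.27. The balance between the isoforms hardly differed, with Akt2 exceeding Akt1 1.58-fold in 14-3-3ζKO and 1.499-fold in wild-type tissue. For differences of this size, 66.7% of all loci differed by at least as much as Akt2 and 56.8% by at least as much as Akt1. Akt2 lies on chromosome 7 at 28376571 to 28425845 (ENSMUSG00000004056.8) and Akt1 on chromosome 12 at 113892032 to 113913095 (ENSMUSG00000001729.7).

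Slc2a4 encodes GLUT4, the transporter that insulin sends to the surface of fat and muscle cells. It stood at 47.2 FPKM in 14-3-3ζKO and 37.3 FPKM in wild-type tissue, a ratio of 1.27 and a log2 difference of 0.33, and 48.7% of all loci differed by at least as much. Slc2a1 encodes GLUT1, which is present in many cell types, endothelial cells among them. It stood at 20.5 FPKM in 14-3-3ζKO and 10.8 FPKM in wild-type tissue, a ratio of 1.90 and a log2 difference of 0.86, and 17.1% of all loci differed by at least as much. Of the transporters, Slc2a1 was past 1.5-fold and Slc2a4 was within the limit. Slc2a4 exceeded Slc2a1 2.30-fold in 14-3-3ζKO and 3.45-fold in wild-type tissue. Slc2a4 lies on chromosome 11 at 69756045 to 69761690 (ENSMUSG00000018566.7) and Slc2a1 on chromosome 4 at 118781316 to 118809935 (ENSMUSG00000028645.4). Slc2a1 shares 105 of its 2853 exonic bases with Gm12868 on the opposite strand, as Pik3r1 shares 48 of 7396 with Gm11016, so for these bases too the strand of the reads cannot be told apart.

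Pck1 encodes the cytosolic phosphoenolpyruvate carboxykinase, which in fat supplies glycerol for the re-esterification of fatty acids and is repressed by insulin. It had the highest level of the 10 genes in both groups, with 205.4 FPKM in 14-3-3ζKO and 186 FPKM in wild-type tissue, a ratio of 1.10 and a log2 difference of 0.14. Of all loci, 75.3% differed by at least as much. The gene lies on chromosome 2 at 172978549 to 172984774 (ENSMUSG00000027513.5). Of Pck1 and Irs2, both known as insulin-repressed genes, Irs2 was past 1.5-fold at the locus numbered with plus-strand loci, and at the locus numbered with minus-strand loci its log2 difference of 0.17 was within the limit, as was that of Pck1.

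Set in order, the levels ran over a 149-fold range in 14-3-3ζKO and a 155-fold range in wild-type tissue, from Irs1 at the bottom to Pck1 at the top, with Akt2 next to the top and Pik3r1 in the fifth place in both groups. The range rests on the Irs1 locus alone. With Gm9747 added, Irs1 would stand at 12.7 FPKM in 14-3-3ζKO and 7.77 FPKM in wild-type tissue and would be the lowest in neither group. Of the 10 log2 differences, 7 were above 0 and 3 were below it, with a median of 0.20, beside a median of 0.04 and quartiles of -0.27 and 0.39 over all 15245 loci. Irs2, Slc2a1 and Pik3r1 lay above the upper quartile, Akt1 lay just below the lower one, and the other 6 genes lay between the quartiles.

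The other genes of the route were examined in 8 lists ordered by role. Of 126 genes found, 121 had a mean of at least 1 FPKM, and of these 17 (14.0%) were at least 1.5-fold higher, 14 (11.6%) were at least 1.5-fold lower and 90 were within these limits. These shares lie near the 17.5% and 10.5% of all loci, and the median log2 difference was 0.02. The split between higher and lower rests on the scaling of the groups: set relative to the adipocyte markers, whose median log2 difference was 0.25, 8 genes were higher and 32 were lower, and among all loci 11.9% were higher and 20.7% were lower.

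Receptor adaptors and receptor brakes held 1 higher and 3 lower genes among 21, with a median of -0.03. The higher gene was Grb10, an adaptor that inhibits the receptor, at 14.5 FPKM in 14-3-3ζKO and 9.26 FPKM in wild-type tissue. The lower ones were Dok1, a docking protein, at 7.44 FPKM in 14-3-3ζKO and 17.5 FPKM in wild-type tissue, the ubiquitin ligase Cbl at 5.21 FPKM in 14-3-3ζKO and 10.3 FPKM in wild-type tissue, and the adaptor Grb2 at 32.3 FPKM in 14-3-3ζKO and 57.1 FPKM in wild-type tissue. Among 14 further subunits of phosphoinositide 3-kinases and lipid phosphatases none was higher and 4 were lower, with a median of -0.25. These were Pik3r5 (3.87 FPKM in 14-3-3ζKO and 13.7 FPKM in wild-type tissue), Pik3cg (1.251 FPKM in 14-3-3ζKO and 4.03 FPKM in wild-type tissue), Pik3cd (3.77 FPKM in 14-3-3ζKO and 8.20 FPKM in wild-type tissue) and the phosphatase gene Inpp5d (17.7 FPKM in 14-3-3ζKO and 32.4 FPKM in wild-type tissue). All 4 encode proteins known mainly from leukocytes, in contrast to Pik3r1 and Pik3ca, which are used in most cells.

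Akt kinases, their activators and phosphatases had a median of -0.17 over 12 genes. Trib1, a pseudokinase of the Tribbles family, stood at 60.6 FPKM in 14-3-3ζKO and 36.7 FPKM in wild-type tissue, and was the higher gene past the limit in this list. Akt substrates and the mTORC1 branch held 2 higher and 1 lower gene among 21, with a median of 0.08. Ddit4, a stress-induced inhibitor of mTORC1, stood at 65.0 FPKM in 14-3-3ζKO and 30.8 FPKM in wild-type tissue. Foxo1, the insulin-restrained transcription factor that acts on Irs2, stood at 21.6 FPKM in 14-3-3ζKO and 13.8 FPKM in wild-type tissue, and Acly, which makes cytosolic acetyl-CoA, at 78.7 FPKM in 14-3-3ζKO and 137 FPKM in wild-type tissue.

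Genes of GLUT4 vesicle traffic held 1 higher and 3 lower among 20, with a median of -0.18. Aspscr1, which encodes the GLUT4 tether TUG, stood at 47.4 FPKM in 14-3-3ζKO and 30.8 FPKM in wild-type tissue. The lower genes were the motor Myo5a (7.76 FPKM in 14-3-3ζKO and 24.7 FPKM in wild-type tissue), Dennd4c (6.90 FPKM in 14-3-3ζKO and 13.7 FPKM in wild-type tissue), an activator of a vesicle GTPase, and the fusion protein gene Snap23 (15.8 FPKM in 14-3-3ζKO and 24.4 FPKM in wild-type tissue). Of the other glucose transporter genes, 7 of 11 had at least 1 FPKM, with a median of 0.01. Slc2a3, which encodes GLUT3, stood at 8.08 FPKM in 14-3-3ζKO and 4.97 FPKM in wild-type tissue, and Slc2a10 at 2.004 FPKM in 14-3-3ζKO and 3.53 FPKM in wild-type tissue.

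The medians of the metabolic lists at the end of the route lay further above 0 than those of the signalling lists. Of 14 genes listed for glyceroneogenesis and phosphoenolpyruvate metabolism, 4 were higher and none was lower, with a median of 0.32. The 4 encode enzymes of gluconeogenesis and a kinase of pyruvate dehydrogenase, while genes of glycerol and phosphoenolpyruvate supply nearer to Pck1 were within the limit, with log2 differences of 0.03 for Gpd1, 0.33 for Pcx, 0.08 for Gyk, -0.43 for Aqp7 and -0.36 for Pck2. The higher genes were the fructose bisphosphatase genes Fbp1 (14.6 FPKM in 14-3-3ζKO and 1.9998 FPKM in wild-type tissue, a log2 difference of 2.38) and Fbp2 (7.25 FPKM in 14-3-3ζKO and 1.46 FPKM in wild-type tissue), G6pc (3.51 FPKM in 14-3-3ζKO and 0.410 FPKM in wild-type tissue) and Pdk4, the kinase that switches off pyruvate dehydrogenase in fasting (114 FPKM in 14-3-3ζKO and 22.0 FPKM in wild-type tissue, a log2 difference of 2.32). Fbp1 and G6pc are known best as enzymes of liver and kidney, and liver markers were also higher in these libraries, as given below. Of 12 genes of insulin-responsive glucose use, 7 were higher and 1 was lower, with a median of 0.71. Examples were Hk2, the insulin-induced hexokinase (52.4 FPKM in 14-3-3ζKO and 24.8 FPKM in wild-type tissue), Mlxipl, which encodes the glucose-sensing factor ChREBP (27.1 FPKM in 14-3-3ζKO and 14.7 FPKM in wild-type tissue), Pfkfb1 (25.5 FPKM in 14-3-3ζKO and 12.1 FPKM in wild-type tissue) and Egr1, an immediate early gene (163 FPKM in 14-3-3ζKO and 81.9 FPKM in wild-type tissue).

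Some of these loci have the same limits as Irs1 and Irs2. Foxo1 shares 674 exonic bases and Aspscr1 355 exonic bases with an annotated gene on the opposite strand, and the loci of Pfkfb1 and Dennd4c reach 68710 and 37538 bases beyond the annotated gene.

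**Figure D3:**
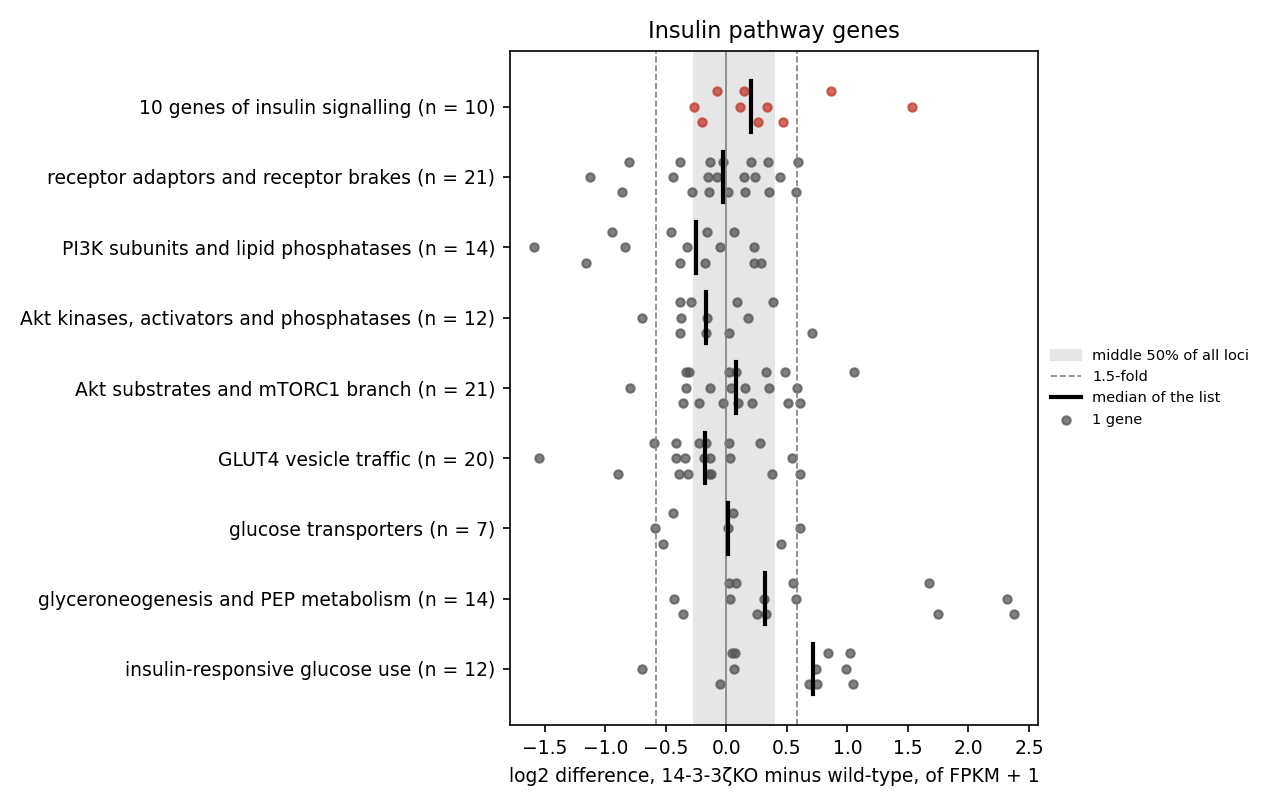
Difference of log2(FPKM + 1), 14-3-3ζKO minus wild-type, for each gene with a mean of at least 1 FPKM in the 10 genes (red) and the 8 lists (grey), with the list median as a black bar, the 1.5-fold limits as dashed lines and the middle 50% of all loci shaded. The medians of insulin-responsive glucose use and of glyceroneogenesis and phosphoenolpyruvate (PEP) metabolism lie furthest to the right, at 0.71 and 0.32. The other medians lie between -0.25 and 0.20.

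The libraries were checked against their labels. Ywhaz stood at 22.5 ± 9.47 FPKM in 14-3-3ζKO (SD, n = 5, range 14.5 to 38.2) and at 107.2 ± 11.8 FPKM in wild-type tissue (SD, n = 6, range 94.2 to 118.3), a log2 difference of -2.28 ± 0.24 (SE). The groups did not overlap, and the exact two-sided permutation test gave p = 0.00216, the smallest that 462 splits allow. The samples are numbered without naming the animals, so this p takes the samples as its units. Ywhaz is among the 86 loci that the authors selected for a difference between these groups, so the test serves only to check the labels.

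Markers of several cell types differed between the groups, and their part in the differences of the 10 genes was not tested. Adipocyte markers were high in both groups, and 5 of 14 were higher and 2 lower, with a median log2 difference of 0.25. The summed level was 47137 FPKM in 14-3-3ζKO and 22690 FPKM in wild-type tissue. Most of both sums came from Fabp4 (31136 FPKM in 14-3-3ζKO and 13823 FPKM in wild-type tissue) and Cfd (7755 FPKM in 14-3-3ζKO and 1899 FPKM in wild-type tissue). The lower genes were Lep (278 FPKM in 14-3-3ζKO and 579 FPKM in wild-type tissue) and Dgat2 (383 FPKM in 14-3-3ζKO and 602 FPKM in wild-type tissue). Macrophage markers were lower at 17 of 20 genes, with summed levels of 1312 FPKM in 14-3-3ζKO and 7099 FPKM in wild-type tissue (Lyz2 at 334 FPKM in 14-3-3ζKO and 2311 FPKM in wild-type tissue). For the 10 macrophage markers given per library, the sums ran from 216 to 467 FPKM over the 5 14-3-3ζKO libraries. In the wild-type libraries 1 to 6 they were 3310, 818, 4510, 4300, 689 and 412 FPKM, so that wild-type libraries 1, 3 and 4 stood apart from the other 3, the lowest of which lay within the 14-3-3ζKO range. The lower Pik3cg, Pik3cd, Pik3r5 and Inpp5d levels stood beside these macrophage values, and the wild-type level of the 10 genes, being 1 value for the group, cannot be given without those libraries.

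Red cell markers were higher at 8 of 8 genes, with summed levels of 5724 FPKM in 14-3-3ζKO and 1637 FPKM in wild-type tissue (Hbb-b1 at 2488 FPKM in 14-3-3ζKO and 781 FPKM in wild-type tissue). For Slc4a1 among them, 14-3-3ζKO library 1 stood at 20.8 FPKM and the other 14-3-3ζKO libraries at 0.0508 to 0.526 FPKM. Library values of the other red cell markers are not given here. Endothelial markers were higher at 4 of 10 genes and lower at none, summing to 343 FPKM in 14-3-3ζKO and 251 FPKM in wild-type tissue. Skeletal muscle markers, of interest beside Slc2a4, summed to 67.1 FPKM in 14-3-3ζKO and 47.7 FPKM in wild-type tissue, with 1 higher and 1 lower of 6 over the floor. Most of both sums came from Myl1 (42.7 FPKM in 14-3-3ζKO and 24.7 FPKM in wild-type tissue) and Pvalb (17.8 FPKM in 14-3-3ζKO and 15.6 FPKM in wild-type tissue). The defining gene Ckm was near 0 at 0.0654 FPKM in 14-3-3ζKO and 0.218 FPKM in wild-type tissue. Brown adipocyte markers summed to 98.0 FPKM in 14-3-3ζKO and 69.1 FPKM in wild-type tissue, and of 4 over the floor 2 were higher and 1 was lower. The higher ones were Cidea (10.6 FPKM in 14-3-3ζKO and 5.03 FPKM in wild-type tissue) and Cox8b (65.9 FPKM in 14-3-3ζKO and 39.7 FPKM in wild-type tissue), and the lower one was the defining gene Ucp1 (0.653 FPKM in 14-3-3ζKO and 2.57 FPKM in wild-type tissue).

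The 4 liver markers, of interest beside Pck1, Fbp1 and G6pc, were all higher, at a summed 560 FPKM in 14-3-3ζKO and 43.8 FPKM in wild-type tissue (Alb at 402 FPKM in 14-3-3ζKO and 28.5 FPKM in wild-type tissue), while 4 kidney markers summed to 1.78 FPKM in 14-3-3ζKO and 0.465 FPKM in wild-type tissue. Epididymis markers, from the organ beside this fat pad, were abundant in both groups at 7465 FPKM in 14-3-3ζKO and 12754 FPKM in wild-type tissue, with 5 of 6 lower, and 3 testis markers summed to 451 FPKM in 14-3-3ζKO and 45.1 FPKM in wild-type tissue, all 3 higher. Stromal and mesothelial markers summed to 869 FPKM in 14-3-3ζKO and 1068 FPKM in wild-type tissue, of which Dcn made 518 FPKM in 14-3-3ζKO and 512 FPKM in wild-type tissue, and 2 of 10 were higher and 3 lower. The lower ones were the stromal genes Col1a1 (ratio 0.171), Col3a1 (0.231) and Pdgfra (0.496), and the higher ones were the mesothelial genes Krt19 (ratio 3.05) and Msln (2.19). Immediate early genes, of interest beside Irs2, include Egr1 itself. They were higher at 9 and lower at 1 of 15, with summed levels of 1100 FPKM in 14-3-3ζKO and 642 FPKM in wild-type tissue. Among these, Ier3 stood at 267.5, 22.8, 33.2, 18.4 and 82.2 FPKM in 14-3-3ζKO libraries 1 to 5, against 6.71 to 26.2 FPKM in wild-type libraries, so that a single library carried most of the group level.

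**Figure D4:**
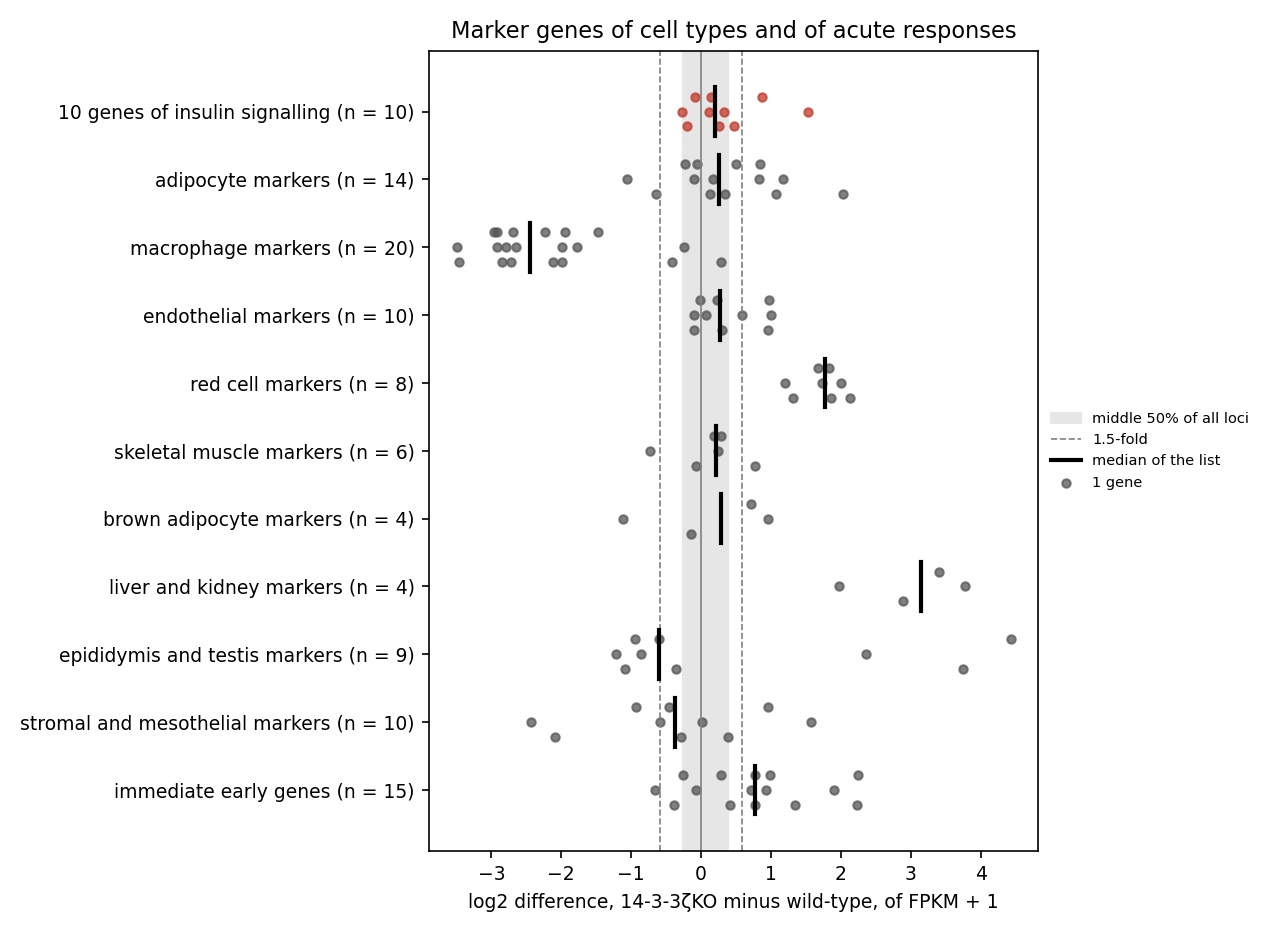
Difference of log2(FPKM + 1), 14-3-3ζKO minus wild-type, for the 10 genes (red) and for each marker gene with a mean of at least 1 FPKM (grey), with list medians as black bars, 1.5-fold limits as dashed lines and the middle 50% of all loci shaded. Macrophage markers lie to the left with a median of -2.44 and red cell markers to the right with a median of 1.77, while the 10 genes centre on 0.20.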

How the data were processed

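The RNA of 5 14-3-3ζKO and 6 wild-type libraries, grouped by their titles, was sequenced by the authors after preparation with a TruSeq V2 kit. Per the submitters' processing notes, reads were aligned with TopHat2 2.0.11 to NCBIM37 and quantified with Cufflinks 2.2.0 and Cuffdiff. The sources used here do not give the scaling between libraries. The deposited tables of the authors hold a single FPKM for each group at 42815 loci and, at 86 loci with a q under 0.05, an FPKM for every library. The deposited group value was the mean of the libraries at 85 of these 86 loci (tolerance 1e-04), the exception being C1qb. Further columns hold the authors' fold, test statistic, p-value, q-value and call, and were not used. The labels and the study's methods name a nominal read number and the files hold no count or total of any library, so FPKM cannot be turned into reads and no counting interval is given.

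Differences were computed as log2(FPKM + 1), 14-3-3ζKO minus wild-type, with python 3.11.15, numpy 2.4.6, pandas 2.3.3, scipy 1.17.1 and matplotlib 3.10.9. Counts used loci with a mean of at least 1 FPKM and a 1.5-fold limit, and a symbol with several loci took the one of highest mean. The script was tested on simulated data. Ywhaz was compared by an exact permutation test. Named were all 10 genes, in each pathway list up to 4 genes past 1.5-fold (largest first), Ywhaz, and up to 2 leading markers per list, while further markers, the glycerol genes near Pck1 and the neighbours of Irs1 and Irs2 were chosen after their values were seen. A gene of the lists that met this rule is not reported here. The 10 genes and the lists were chosen with earlier results of these data known. Alternatives were other pseudocounts, floors, folds, centrings and locus choices, leaving out each library and a replicate block for Ywhaz.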

Additional observations from a re-analysis of the deposited data

Results flagged for a closer look

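Library values were examined in 30 groups (14 loci in each genotype, and the macrophage sum). Of these, 3 held a library far from the others on the FPKM scale, and in each it was 14-3-3ζKO library 1. The rule expects about 1 in 20 groups only for independent values with a normal spread. The loci were selected, most are macrophage markers that vary together, and FPKM was not log-transformed, so no chance rate can be given. None of these loci is among the 10 insulin signalling genes, but that library enters their 14-3-3ζKO level. Slc4a1, the red cell anion exchanger, stood at 20.8, 0.526, 0.0508, 0.123 and 0.454 FPKM in 14-3-3ζKO libraries 1 to 5, against 0.0275 to 0.452 FPKM in wild-type libraries, and the gap took 0.977 of the 14-3-3ζKO range. Gadd45g, a stress-response gene, stood at 358, 73.8, 24.9, 30.3 and 90.5 FPKM in 14-3-3ζKO libraries, against 14.6 to 31.5 FPKM in wild-type libraries, with a gap of 0.803 of the range. For the immediate early gene Ier3, whose values by library stand above, the gap was 0.744 of the range. The group levels of Irs2 and Slc2a1 cannot be given without this library, and its part in them was not tested.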

How the results depend on the processing

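Each of the 10 genes has 1 value per group, so nothing here measures the spread between animals, and the choices below move only the scale, the limit and the locus. Over the settings, Irs2 ranged over 0.17 to 1.68, Slc2a1 over 0.61 to 0.92, Pik3r1 over 0.21 to 0.48, Slc2a4 over 0.08 to 0.34 and Insr over 0.01 to 0.28 (log2). Akt1 ranged over -0.52 to -0.27, Akt2 over -0.45 to -0.20 and Pik3ca over -0.34 to -0.08, while Irs1 and Pck1 changed sign, to -0.14 and -0.11, relative to the adipocyte markers. With the Irs2 locus numbered among minus-strand loci, a choice made after seeing the data, Irs2 lay within the limit and 1 of the 10 genes was higher. With Gm9747 added, also a choice made after seeing the data and not among the settings above, Irs1 stood at 0.64, past the limit.

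A 2-fold limit left 1 of the 10 genes higher, 7 pathway genes higher and 4 lower, against 9.67% and 4.31% of all loci. A limit lower than 1.5-fold gave 4 of the 10 genes, 33 pathway genes higher and 33 lower, against 28.7% and 21.2% of all loci. Without a floor 8.62% of loci were higher and 4.17% lower. Relative to the adipocyte markers (a shift of 0.25), 8 pathway genes were higher, 32 were lower and 20.7% of all loci were lower, and Grb10, Foxo1, Aspscr1, Slc2a3, Trib1 and Mlxipl were then within the limit. Relative to the median of all loci (a shift of 0.04), Grb10, Foxo1, Aspscr1 and Slc2a3 were within it. The 27 pathway genes that met the naming rule under 12 settings gave 292 values that stayed, 28 that moved and 0 that reversed. A value moved if its call changed or if it shifted by at least the SD of 0.998. Genes below a floor of 5 FPKM gave no value at that setting. The epididymis and testis list median was 0.9998, against -0.60, when loci naming several genes were left out, since fewer genes remain.

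The Ywhaz difference ranged over -2.48 to -2.15 with each library left out. With the replicate block it was -2.25 with an exact permutation p of 0.0625, the smallest that 5 pairs allow. Same-numbered libraries correlated from -0.49 to 0.57 over the 86 loci. Libraries of different number were not compared, so whether the numbers pair the samples was not settled.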
